A study of Mus musculus with 6 samples.

Results

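The tumour necrosis factor (TNF) superfamily was examined in mouse CD4+ T cells that had received a synthetic miR-155 oligonucleotide. Members were the rows of the deposited count table whose mouse symbol begins with Tnfsf or Tnfrsf followed by a digit, or is Tnf, Lta, Ltb, Ltbr, Fas, Fasl, Cd27, Cd70, Cd40 or Cd40lg. The rule found 36 members, 13 ligands and 23 receptors, among 13177 rows. Libraries were 3 from cells collected 8 h after transfection (8 h replicates 1 to 3) and 3 controls labelled as zero hour (control replicates 1 to 3). All 6 are labelled as oligonucleotide-treated, the controls included, and no library was taken at 8 h without the oligonucleotide, so time and exposure cannot be told apart. The descriptions of the 8 h samples name CD5+ cells where all other labels name CD4+ cells, and neither strain nor age of the mice is given in the sources used here. Whether the replicates are separate mice or cultures is not stated, so p-values measure only the spread between these libraries, which may be technical.

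TNF superfamily ligands are mostly membrane proteins that act as trimers and cluster their receptors on a neighbouring cell. The receptors fall into those with a cytoplasmic death domain, such as Fas and TNFR1, those that bind TRAF adaptors and switch on NF-kB, such as OX40, GITR, CD27 and CD40, and decoys that bind ligand without a signal. In helper T cells, OX40, 4-1BB, CD27 and GITR act as costimulatory receptors, and CD40 ligand is the classical signal by which these cells help B cells.

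Library totals lay between 4564010 and 13675127 counts. Of 8 T cell markers 6 had enough counts to be tested, among them the receptor chains Cd3d, Cd3e and Cd3g with at least 256 counts in every library. The other two were Cd4, the marker that names these cells, with 5 to 10 counts, and the receptor chain Cd247 with 3 to 16 counts. Actb had 1 to 5 and Gapdh 1 to 11 counts in any library, far below what their usual abundance would give, so it is uncertain whether rows hold ordinary counts per gene, and all levels carry that limit. Libraries of 1 group differed widely from each other. Within the 8 h group the highest library exceeded the lowest by a median factor of 20.1 over the 23 tested members without a 0, against 10.4 over 7774 tested rows. Within the controls that factor was 13.2 over 22 tested members, against 9.83 over 7544 tested rows.

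The transferred oligonucleotide is a form of miR-155, and the sequences show which members carry a match to miR-155-5p. Mature mouse miR-155 sequences from RefSeq (GRCm38.p6) are given with the seed, bases 2 to 8, in capitals, and whether the synthetic oligonucleotide held both strands is not given in the sources used here.
mmu-miR-155-5p: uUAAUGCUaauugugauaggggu
mmu-miR-155-3p: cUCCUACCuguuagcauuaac
The 3' UTR of the GENCODE M21 transcript paired with each accession was searched on the sense strand for AGCATTA and GCATTAA, which overlap in the longest match AGCATTAA. These are matches to the seed of miR-155-5p, and matches to miR-155-3p were not searched for. A match was found in 3 of 35 members searched (8.57%), against 1355 of 12580 rows of the whole table (10.8%). The sites of these 3 members follow on GRCm38, with the match in capitals.
Tnfrsf11a, chr1:105847727-105847756, plus strand: aaaagtgctaagAGCATTAAgaatctactt
Tnfrsf10b, chr14:69783238-69783267, plus strand: ggacacagagggAGCATTAAgtgctacctg
Tnfsf9, chr17:57107652-57107681, plus strand: aattcactagatAGCATTAgtaaactgctg
The fitted values of these 3 members give no common direction, and none of the 3 passed the test described below. Tnfrsf11a had a log2 fold change (8 h over control) of 5.82 ± 2.18 (SE), which was 0.59 without 8 h replicate 2. Tnfsf9 had one of 0.30 ± 1.70 (SE) and Tnfrsf10b one of -0.24 ± 1.68 (SE). The signs of Tnfsf9 and Tnfrsf10b turned in some fits with a library left out. A match describes the letters of a window and not a working target site.

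Values are CPM, counts scaled to a common library size after TMM scaling, unless counts are named, and 24 of the 36 members had enough counts to be tested. The log2 fold change was positive for 8 of 9 tested ligands and negative for 10 of 15 tested receptors, but no member passed the test. EdgeR's quasi-likelihood test called 0 of the 24 members at an adjusted p under 0.05, where it called 0 of 8308 rows (0%), and the adjusted p of the members lay between 0.441 and 0.995. At an unadjusted p under 0.05 it gave 3 members, Tnfsf4, Lta and Tnfrsf11a, all with higher values at 8 h, where 8.53% of rows reached that p, 4.51% with higher and 4.02% with lower values. The Wald test of DESeq2, an alternative, called 2 of the 24 members, Tnfsf4 and Lta, where it called 388 of 8308 rows (4.67%), and gave no adjusted p for 4 members, Tnfrsf11a, Tnfrsf10b, Tnfrsf23 and Fas. It gave 5 of the 24 members an unadjusted p under 0.05, where it gave 1371 of 8308 rows one. These members were Tnfsf4, Lta, Tnfsf11, Tnfrsf13b and Tnfrsf4. The median log2 fold change was 1.46 over the tested ligands and -0.27 over the tested receptors. Over all 8308 tested rows 4263 were positive and 4045 negative, with a median of 0.06. In these bulk samples, fewer cells of a type and less RNA per cell cannot be told apart.

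**Figure D1:**
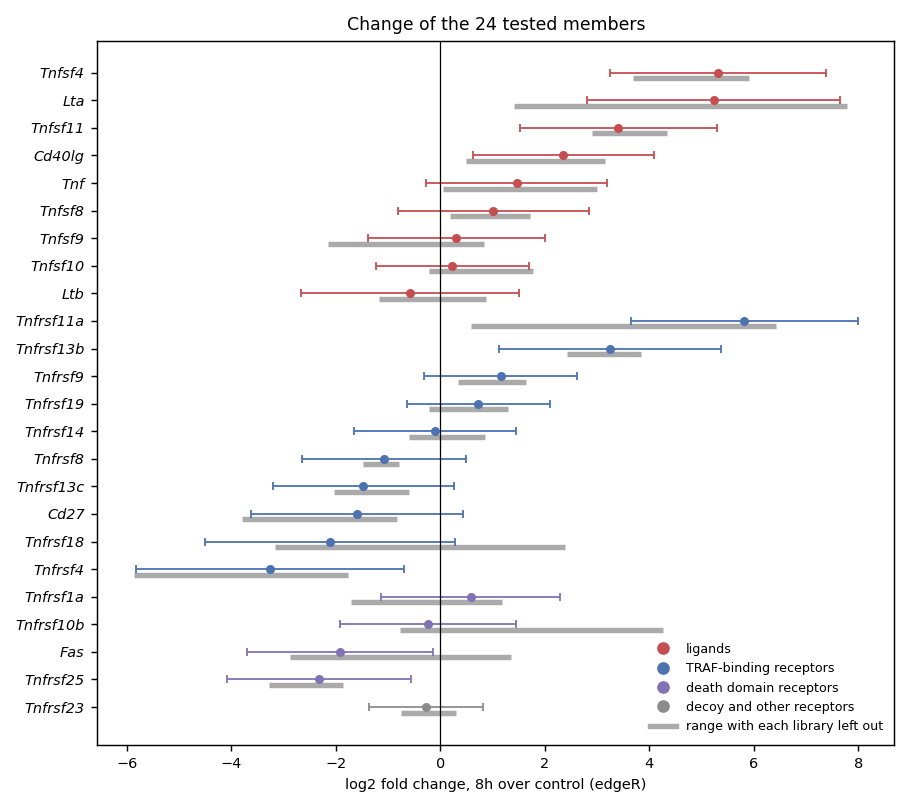
Log2 fold change (8 h over control, horizontal axis) of each of the 24 tested members from edgeR, as points with bars of 1 SE, coloured by role, and the range of the estimate when each library was left out (grey bars). The ligands Tnfsf4, Lta and Tnfsf11 and the receptors Tnfrsf11a and Tnfrsf13b lie farthest to the right and Tnfrsf4 farthest to the left, and the grey bars of 10 members cross 0.

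Among the tested ligands, the groups did not overlap for Tnfsf4. Tnfsf4 encodes OX40 ligand, usually shown by antigen-presenting cells and in some settings by activated T cells (chromosome 1, 161395438 to 161418206, GRCm38). It had 48, 2393 and 302 counts in 8 h replicates 1 to 3, against 10, 16 and 9 counts in the controls. In CPM these were 5.64, 180 and 43.8 at 8 h, against 1.79, 3.18 and 0.821 in the controls. All 3 libraries at 8 h lay above all 3 controls, with the highest value in 8 h replicate 2. Its means were 76.5 ± 91.8 CPM at 8 h and 1.93 ± 1.19 CPM in the controls (SD, n = 3 each), a log2 fold change of 5.31 ± 2.07 (SE). EdgeR gave an adjusted p of 0.455 and DESeq2 one of 0.00452. The highest over all alternatives was 0.998, from the edgeR fit with replicate number as a block, which gave every tested member that value. Of the other alternatives the highest was 0.613, in edgeR without 8 h replicate 2. Without 8 h replicate 2 the log2 fold change was 3.69. Tnfsf4 was the 1 tested member whose groups did not overlap with higher values at 8 h, where 5.72% of tested rows did so, and 0 members did so with lower values, where 5.08% of rows did.

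Lta, Tnf and Ltb are neighbours on chromosome 17 (35194507 to 35205578, GRCm38), with 3061 bases between Ltb and Tnf and 1157 between Tnf and Lta. Lta encodes lymphotoxin alpha, secreted as a homotrimer or held at the membrane by lymphotoxin beta. It had 2027, 9.87 and 91.4 CPM in 8 h replicates 1 to 3, against 2.503, 3.98 and 50.1 CPM in the controls. The high values at 8 h came from replicate 1, with 17266 counts, while 8 h replicate 2 lay below control replicate 3. The fitted log2 fold change of 5.23 ± 2.42 (SE) came with adjusted p values of 0.543 in edgeR and 0.0432 in DESeq2. In edgeR it was 0.998 with the replicate block, as for every tested member, and otherwise at most 0.889, without 8 h replicate 1. Leaving out 8 h replicate 1 gave 1.40.

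Tnf, the founding cytokine of the family, had 182, 969 and 25 counts at 8 h, against 19, 25 and 298 counts in the controls, so that the groups overlapped. Its log2 fold change of 1.46 ± 1.73 (SE) was 0.05 without 8 h replicate 2. Ltb, the membrane anchor of the lymphotoxin heterotrimer, was the steadiest of the 3 at 8 h, with 754, 249 and 333 CPM, against 12.5, 1521 and 459 CPM in the controls. Control replicate 1 was the low library there, with 70 counts. For Ltb the log2 fold change of -0.58 ± 2.09 (SE; edgeR adjusted p = 0.960) became 0.88 without control replicate 2. The 3 neighbouring genes thus peaked in 3 different libraries, Lta in 8 h replicate 1, Tnf in 8 h replicate 2 and Ltb in control replicate 2.

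Tnfsf11 encodes RANK ligand, which activated T cells make and which drives osteoclast formation. It had 9.04, 114 and 95.2 CPM at 8 h, against 3.93, 3.38 and 13.2 CPM in the controls. Control replicate 3 lay above 8 h replicate 1, and the other two libraries at 8 h lay above every control. On the log2 scale the difference was 3.41 ± 1.89 (SE; edgeR adjusted p = 0.621) and ran from 2.91 to 4.34 when each library was left out. Cd40lg, the B cell help signal, had 38.0, 8.06 and 0.290 CPM at 8 h, against 5.72, 0.398 and 2.92 CPM in the controls. The lowest value of all 6 libraries was thus an 8 h one, with 2 counts in 8 h replicate 3, and the log2 fold change of 2.35 was 0.50 without 8 h replicate 1.

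Tnfsf8, the ligand of CD30, had 153, 263 and 8.41 CPM at 8 h, against 22.3, 66.4 and 121 CPM in the controls. Its groups overlapped, and it had a log2 fold change of 1.01 ± 1.83 (SE; edgeR adjusted p = 0.904). Tnfsf9, the ligand of 4-1BB, had 3.29, 3.16 and 47.8 CPM at 8 h, against 1.25, 24.1 and 18.6 CPM in the controls. Its highest library was 8 h replicate 3, without which the log2 fold change was -2.15. Tnfsf10, the death ligand TRAIL, stayed between 0.869 and 6.25 CPM at 8 h and between 1.07 and 8.03 CPM in the controls.

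**Figure D2:**
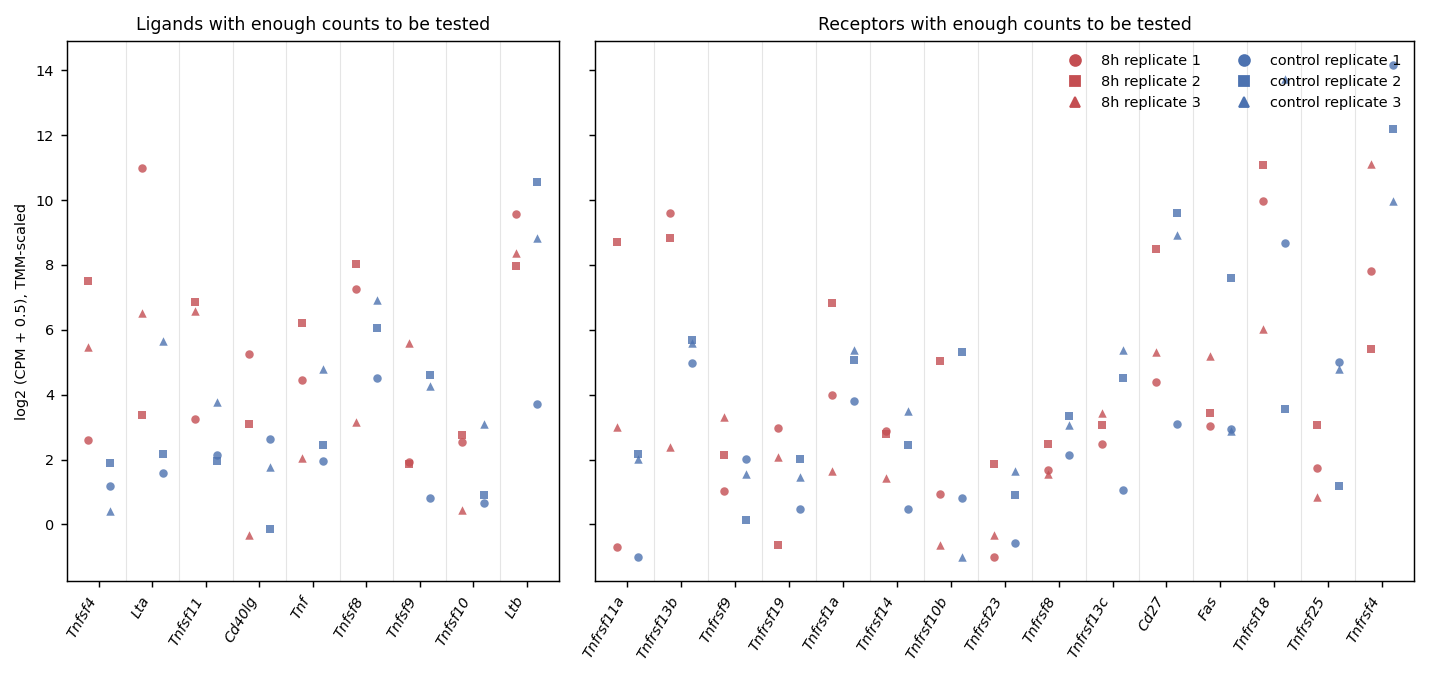
Level of each tested ligand (left) and receptor (right) in each library, as log2 of CPM plus 0.5 on the vertical axis, with 8 h libraries in red left of controls in blue and a marker for each replicate number. Members run from the highest to the lowest log2 fold change, and in Tnfsf4 alone all red points lie above all blue points.

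Of the receptors that bind TRAF adaptors, the 2 with the most counts had lower mean values at 8 h without passing the test. Tnfrsf4 encodes OX40, a costimulatory receptor of activated helper T cells that regulatory T cells also carry (chromosome 4, 156013595 to 156016613, GRCm38). It had 1914, 559 and 15306 counts in 8 h replicates 1 to 3, against 101932, 23274 and 10900 counts in the controls. In CPM these were 225, 42.1 and 2218 at 8 h, against 18221, 4627 and 994 in the controls. The groups overlapped, since 8 h replicate 3 lay above control replicate 3. The log2 fold change of Tnfrsf4 was -3.26 ± 2.56 (SE; adjusted p = 0.742 in edgeR and 0.244 in DESeq2). Leaving out 8 h replicate 3 gave -5.88, and leaving out control replicate 1 gave -1.76.

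Tnfrsf18 encodes GITR, a costimulatory receptor high on regulatory T cells, and lies 9708 bases from Tnfrsf4. It had 1008, 2156 and 64.2 CPM at 8 h, against 404, 11.3 and 13564 CPM in the controls. The controls thus held both the highest and the lowest library, from 57 to 148701 counts. Its log2 fold change of -2.11 ± 2.39 (SE; edgeR adjusted p = 0.833) became 2.40 without control replicate 3. Markers of regulatory T cells, a list of 4 genes that all had a row, summed to 349, 597 and 1584 CPM at 8 h, against 130, 374 and 4886 CPM in the controls. Nearly all of that sum was Ctla4, with 4881 CPM in control replicate 3. The defining factor Foxp3 had 96, 28 and 16 counts at 8 h, against 6, 0 and 38 in the controls. Ikzf2 had 0, 57 and 216 counts at 8 h, against 1, 1 and 4 in the controls. Il2ra had 91, 27 and 11 counts at 8 h, against 13, 25 and 16 in the controls. The part of this list in the values of Tnfrsf18 and Tnfrsf4 was not tested. Exons of Tnfrsf18 overlap Gm16008 on the opposite strand, and as strand use in counting is not given, its reads cannot be told from those of that gene.

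Cd27, a costimulatory receptor that most naive helper T cells carry, had 20.4, 356 and 39.6 CPM at 8 h, against 8.04, 770 and 481 CPM in the controls. One library of each group departed from its group, 8 h replicate 2 above and control replicate 1 below. The difference was -1.60 ± 2.03 on the log2 scale (SE; edgeR adjusted p = 0.853), and -3.80 when 8 h replicate 2 was left out.

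The 2 receptors with the largest positive log2 fold changes, Tnfrsf11a and Tnfrsf13b, are best known from other cell types. Tnfrsf11a encodes RANK, the receptor of osteoclast precursors and dendritic cells (chromosome 1, 105780673 to 105849444, GRCm38). It had 1, 5593 and 52 counts at 8 h, against 0, 20 and 39 counts in the controls. Of these, 8 h replicate 2 alone was high, at 421 CPM, while 8 h replicate 1 lay at 0.117 CPM. The count of 0 in control replicate 1 allows up to 0.536 CPM, a limit of 3 counts that covers counting error only. This gave a log2 fold change of 5.82 ± 2.18 (SE; edgeR adjusted p = 0.441), which was 0.59 without 8 h replicate 2. In that library the 5 stromal and endothelial markers, all with a row, summed to 125 CPM, of which Col1a1 gave 120. They summed to 32.6 and 29.4 CPM in the other two 8 h libraries and to 219, 12.9 and 38.5 CPM in the controls, with Col3a1 at 0 in 8 h replicate 3 and Cdh5 at 0 in control replicate 2. The 10 myeloid and dendritic markers summed to 16.0 CPM in 8 h replicate 2, of which Adgre1 gave 6.63. Adgre1 had 0, 88 and 0 counts at 8 h, against 331, 1 and 21 in the controls. The part of either list in the value of Tnfrsf11a was not tested.

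Tnfrsf13b encodes TACI, a receptor for BAFF and APRIL known from B cells (chromosome 11, 61126283 to 61153170, GRCm38). It had 775, 455 and 4.78 CPM in 8 h replicates 1 to 3, against 30.7, 51.1 and 48.2 CPM in the controls. The controls lay close together, within a ratio of 1.66, while the 8 h group held the 2 highest libraries and the lowest one. For Tnfrsf13b the log2 fold change was 3.25 ± 2.12 (SE; edgeR adjusted p = 0.670) and ran from 2.43 to 3.85 when each library was left out. The B cell markers, 6 of 6 with a row, summed to 99.0, 106 and 37.1 CPM at 8 h, against 84.9, 66.0 and 25.8 CPM in the controls. Of the 4 tested B cell markers 2 had a positive and 2 a negative log2 fold change, with a median of -0.14. EdgeR called 0 of them and gave 0 an unadjusted p under 0.05. DESeq2 called 1, Ms4a1, where it called 4.67% of tested rows. Ms4a1, which encodes CD20 and had a log2 fold change of 3.55, had 324, 574 and 207 counts at 8 h, against 21, 15 and 30 in the controls. Cd79a and Cd79b, the signalling chains of the B cell receptor, had log2 fold changes of -0.91 and -1.30. Pax5 had 1, 108 and 1 counts at 8 h, against 0, 2 and 5 in the controls. Whether B cells contributed to the values of Tnfrsf13b was not tested.

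Tnfrsf13c, the BAFF receptor of B cells, had 5.05, 7.83 and 10.4 CPM at 8 h, against 1.61, 22.5 and 40.8 CPM in the controls. It thus differed in order from Tnfrsf13b, with a log2 fold change of -1.48 ± 1.73 (SE). Tnfrsf8, which encodes CD30, had 2.70, 5.05 and 2.46 CPM at 8 h, against 3.93, 9.74 and 7.94 CPM in the controls. It varied less between libraries than most members, and its log2 fold change of -1.08 ± 1.57 (SE) ran from -1.47 to -0.80 when each library was left out. Tnfrsf9, which encodes 4-1BB, had 1.53, 3.92 and 9.42 CPM at 8 h, against 3.58, 0.597 and 2.46 CPM in the controls. Tnfrsf14, the receptor HVEM, had 6.93, 6.40 and 2.17 CPM at 8 h, against 0.894, 4.97 and 10.7 CPM in the controls, with a log2 fold change of -0.10 ± 1.55 (SE). Tnfrsf19, known as TROY, ranged from 0.151 to 7.28 CPM at 8 h and from 0.894 to 3.58 CPM in the controls.

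Death domain receptors gave 1 positive and 3 negative log2 fold changes among 4 tested members. Fas, the receptor through which activated T cells are deleted, had 7.75, 10.2 and 35.9 CPM at 8 h, against 7.15, 191 and 6.93 CPM in the controls. Control replicate 2 alone made the mean of the controls the higher one, and without it the log2 fold change of -1.93 ± 1.78 (SE) was 1.35. Tnfrsf1a, the main TNF receptor of most cells, had 15.3, 114 and 2.61 CPM at 8 h, against 13.6, 33.2 and 41.1 CPM in the controls. Its log2 fold change of 0.58 ± 1.72 (SE) was -1.72 without 8 h replicate 2. Tnfrsf25, the receptor of TL1A on T cells, had 2.82, 7.91 and 1.30 CPM at 8 h, against 31.6, 1.79 and 27.2 CPM in the controls. The log2 fold change of -2.33 ± 1.76 (SE; edgeR adjusted p = 0.726) stayed negative when each library was left out, from -3.29 to -1.86.

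Tnfrsf10b, the mouse TRAIL receptor, was high in 1 library of each group, with 1.41, 32.3 and 0.145 CPM at 8 h, against 1.25, 39.0 and 0 CPM in the controls. The 0 in control replicate 3 allows up to 0.274 CPM. Tnfrsf23, a decoy for TRAIL, had at most 42 counts, and its counts are uncertain because Tnfrsf22, 16131 bases away, is a close relative and because it overlaps E230032D23Rik on the opposite strand. Exons of Tnfsf9 likewise overlap Gm11110 on the opposite strand.

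The 12 members with too few counts to be tested had 0 to 134 counts in any library. They were the ligands Cd70, Fasl, Tnfsf13b and Tnfsf14 and the receptors Cd40, Ltbr, Tnfrsf1b, Tnfrsf11b, Tnfrsf12a, Tnfrsf17, Tnfrsf21 and Tnfrsf22. The highest count was that of Ltbr, the lymphotoxin beta receptor of stromal and myeloid cells, with 0, 7 and 134 counts at 8 h, against 1, 3 and 0 in the controls. Fasl, the ligand of Fas, had 26, 64 and 7 counts at 8 h, against 4, 5 and 3 in the controls, which did not overlap in CPM (1.01 to 4.82 at 8 h and 0.274 to 0.994 in the controls). Tnfsf13b, which encodes BAFF, had 9, 115 and 31 counts at 8 h, against 1, 0 and 14 in the controls. Tnfrsf11b, the RANK ligand decoy osteoprotegerin, had 2, 1 and 5 counts at 8 h, against 0, 28 and 85 in the controls. Tnfrsf1b, which encodes the second TNF receptor and is known from regulatory and activated T cells, had at most 5 counts in any library, with 4, 5 and 2 at 8 h, against 1, 0 and 2 in the controls. Its groups did not overlap in CPM either, but 8 h replicate 3 (0.290 CPM) and control replicate 3 (0.182 CPM) had 2 counts each. Library scaling alone set these 2 libraries apart. Fasl and Tnfrsf1b were the 2 untested members whose groups did not overlap, and the share over all untested rows was not computed. Cd40, the B cell receptor for CD40 ligand, had at most 4. The symbol rule matched 42 RefSeq symbols on this build, and the 6 without a row were Tnfsf12, Tnfsf13, Tnfsf13os, Tnfsf15, Tnfsf18 and Tnfrsf26. Tnfsf13os was matched by its letters alone and is not counted here as a ligand.

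Ligands and receptors were set side by side in CPM per kilobase of the paired transcript, with no test. OX40 ligand (Tnfsf4) had 3.06, 97.8 and 23.8 CPM per kilobase at 8 h, against 0.970, 1.73 and 0.446 in the controls. OX40 (Tnfrsf4) had 218, 40.9 and 2154 CPM per kilobase at 8 h, against 17690, 4493 and 965 in the controls. The ligand exceeded its receptor in 1 library, 8 h replicate 2, where the ligand was highest and the receptor lowest. RANK ligand (Tnfsf11) exceeded RANK (Tnfrsf11a) in every library except 8 h replicate 2, where the receptor had 83.8 and the ligand 51.2 CPM per kilobase. Cd27 exceeded its ligand Cd70 in every library, the ligand lying between 0.837 and 1.43 CPM per kilobase at 8 h and between 0.637 and 3.68 in the controls. Fas exceeded Fasl in every library, the ligand lying between 0.524 and 2.49 CPM per kilobase at 8 h and between 0.141 and 0.513 in the controls.

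**Figure D3:**
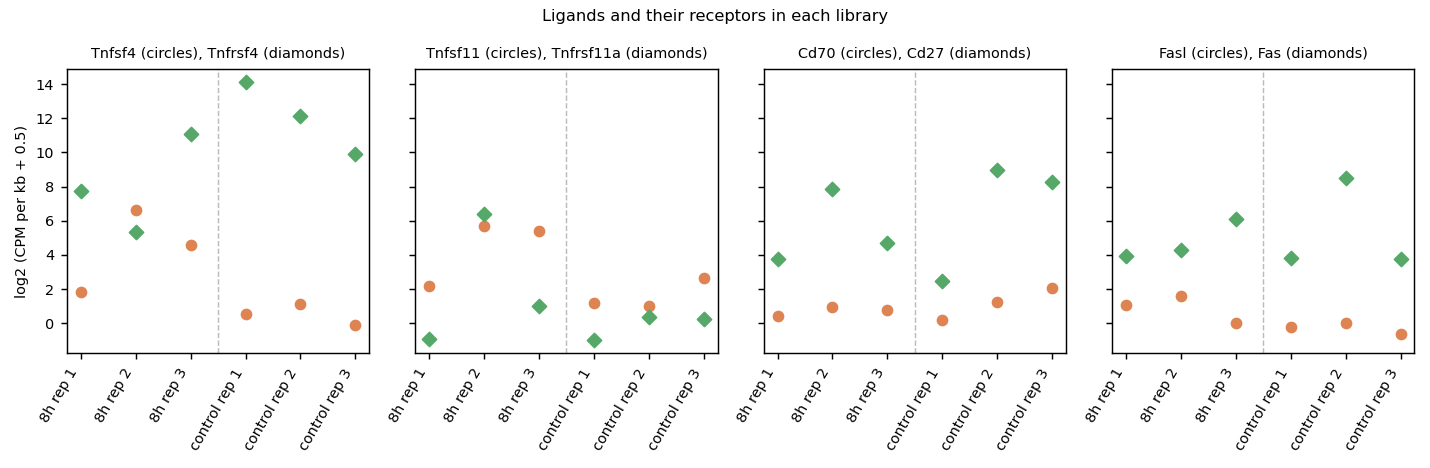
Ligand (circles) and receptor (diamonds) of 4 pairs in each library, as log2 of CPM per kilobase of transcript plus 0.5 on the vertical axis, with 8 h libraries left of the dashed line and controls right of it. Tnfrsf4 lies far above Tnfsf4 in the controls, and the order is turned in 8 h replicate 2.

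Averaged over all 6 libraries, the order of levels per kilobase was led by Tnfrsf4 at 4260, Tnfrsf18 at 2412, Ltb at 478, Tnfrsf13b at 303, Lta at 263 and Cd27 at 179 CPM per kilobase. The ranges of these 6 members over libraries overlap, so their order is not beyond their spread. The transcript paired with Tnfrsf13b has 750 bases and no 3' UTR, which raises its level per kilobase. In CPM its mean of 228 lay below those of Lta (364) and Cd27 (279). At the low end, Cd40 averaged 0.109 and Tnfrsf1b 0.0654 CPM per kilobase.

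All members together took a smaller part of the counts in each 8 h library than in each control, a description with no test. Their share was 0.510%, 0.441% and 0.338% in 8 h replicates 1 to 3, against 1.63%, 0.817% and 1.42% in the controls, with means of 0.430 ± 0.0862% at 8 h and 1.29 ± 0.422% in the controls (SD, n = 3 each). The lowest control thus lay above the highest 8 h library. Most of that share in the controls was 1 gene per library. Tnfrsf4 took 97.0% of the members' counts in control replicate 1 and 62.4% in control replicate 2, and Tnfrsf18 took 85.04% in control replicate 3. At 8 h the leading member was Lta in replicate 1 with 39.7%, Tnfrsf18 in replicate 2 with 47.4% and Tnfrsf4 in replicate 3 with 72.4%. Without Tnfrsf4 and Tnfrsf18 the groups overlapped, with 0.387%, 0.228% and 0.0862% at 8 h, against 0.0145%, 0.306% and 0.124% in the controls.

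Ligands took 0.302%, 0.0896% and 0.0699% of the counts at 8 h, against 0.00491%, 0.1798% and 0.0630% in the controls. Receptors took 0.208%, 0.352% and 0.269% at 8 h, against 1.62%, 0.637% and 1.36% in the controls, again without overlap. Most of the receptor share in each control was Tnfrsf4 or Tnfrsf18, and the receptor share without both was not computed. Summed levels of 3 marker lists were likewise lower in each 8 h library than in each control, although edgeR called 0 genes of each list and a few genes carried the sums. Of the 9, 4 and 3 tested genes of these lists, DESeq2 called 2 (Gzma and Prf1), 1 (Itgax) and 1 (Alas2). Over all tested rows it called 4.67%, and it gave Adgre1 of the second list no adjusted p. EdgeR gave 2, 1 and 1 genes of these lists an unadjusted p under 0.05, where 8.53% of tested rows had one. The 9 markers of CD8, cytotoxic and natural killer cells, all with a row, summed to 370, 444 and 243 CPM at 8 h, against 4846, 1317 and 2796 CPM in the controls, and Klrb1c was at 0 in 8 h replicate 1. Gzmb alone gave 4535 CPM of that sum in control replicate 1, and 3 of the 9, Cd8a (0.61), Cd8b1 (0.61) and Ncr1 (0.65), had a positive log2 fold change. The 10 myeloid and dendritic markers, all with a row, summed to 21.01, 16.0 and 19.9 CPM at 8 h, against 183, 55.9 and 41.3 CPM in the controls. Of these, Adgre1 was at 0 in 8 h replicates 1 and 3 and had 88 counts in 8 h replicate 2. S100a8 was at 0 in control replicates 1 and 3, S100a9 in control replicate 3 and Csf1r in control replicate 1. Itgam had 36, 1 and 7 counts at 8 h, against 1, 3 and 1 in the controls, and S100a9 had 21, 11 and 2 counts at 8 h, against 2, 3 and 0 in the controls, neither with lower counts throughout at 8 h. The 4 erythroid markers, all with a row, summed to 2.32 to 10.2 CPM at 8 h and 18.6 to 53.0 CPM in the controls, with Alas2 at 0 in 8 h replicates 1 and 3. The part of these 3 lists in the share of the members was not tested. Sums of the T cell, regulatory T cell, B cell, and stromal and endothelial lists overlapped between the groups. The T cell markers summed to 3948, 4042 and 12345 CPM at 8 h, against 3346, 16889 and 19100 CPM in the controls.

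**Figure D4:**
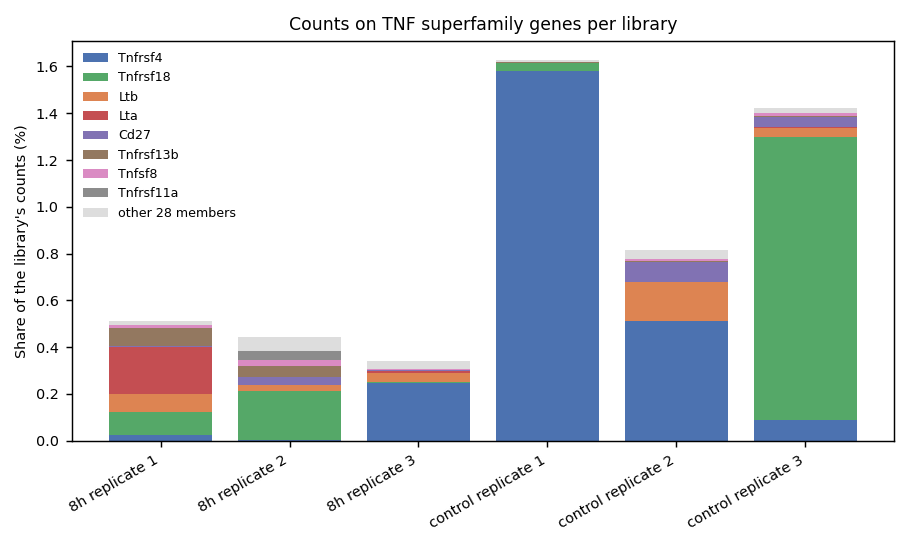
Share of each library's counts (vertical axis, percent) that fell on TNF superfamily genes, stacked by member, with the 8 h libraries left of the controls. Every 8 h bar is lower than every control bar, and Tnfrsf4 (blue) or Tnfrsf18 (green) fills most of each control bar.

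The signalling genes below these receptors were described from a list of 41 adaptors, kinases, ubiquitin enzymes and NF-kB subunits. Of these, 37 had a row and 21 were tested. EdgeR and DESeq2 each called 0 of the 21, and 1, Map3k5, had an unadjusted p under 0.05 in edgeR, where 8.53% of rows did. DESeq2 gave no adjusted p for 5 of them, Rbck1, Chuk, Traf6, Nfkb1 and Tab3, which it could not call. The log2 fold change was positive for 5 and negative for 16, with a median of -0.74, beside 0.06 over all tested rows. Tab1, a subunit of the TAK1 kinase complex, was the 1 tested gene of the list whose groups did not overlap, with 46, 13 and 26 counts at 8 h, against 100, 39 and 276 counts in the controls. Over all tested rows 5.08% had groups that did not overlap with lower values at 8 h. Tab1 had a log2 fold change of -2.32 ± 1.74 (SE; edgeR adjusted p = 0.718). Map3k5, which encodes the stress kinase ASK1, had 50, 14 and 8 counts at 8 h, against 11, 62 and 1221 in the controls, where control replicate 3 alone was high. It was chosen for naming after its values were seen. The other genes with a row but too few counts had at most 67 counts in any library, among them Nfkbia, the inhibitor of NF-kB, with 1 to 5, and Cflar, the inhibitor of caspase-8 activation, with 0 to 3. Of these untested genes 2 had groups that did not overlap in CPM, both with higher values at 8 h. The share over all untested rows was not computed. Xiap, a caspase inhibitor, had 3, 5 and 2 counts at 8 h, against 1, 0 and 2 in the controls. Adam10, a protease that sheds membrane proteins, had 2, 11 and 2 counts at 8 h, against 1, 1 and 2 in the controls. In both genes 8 h replicate 3 and control replicate 3 had 2 counts each, and library scaling alone set them apart.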

How the data were processed

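RNA of mouse CD4+ T cells was sequenced from TruSeq libraries as single reads, per the labels. The deposited table holds raw read counts per RefSeq accession, with 1 row per named gene. The submitters' processing notes list Bowtie, R 3.4.2 and GRCm38. The counting program, its use of strand or multiply matching reads and any row filter were not given in the sources used here. For 14 of the 36 members RefSeq lists more than 1 curated transcript, and how their reads were assigned is not known. Accessions were named through the RefSeq gene table of GRCm38.p6 (12824) or GENCODE M21 (50), and 303 stayed unnamed. All 36 members were paired with a GENCODE transcript for length, and 35 of these, all but that of Tnfrsf13b, have a 3' UTR.

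The whole table was fitted by edgeR 4.0.16 (R 4.3.3) with group as the only term, TMM scaling, the filterByExpr filter (8308 rows) and the two-sided robust quasi-likelihood F test (default form), with p-values adjusted by Benjamini-Hochberg and a threshold of 0.05. CPM use the TMM-scaled sums of the filtered rows. SE was derived as the size of the log2 fold change divided by the root of F. Alternatives were RLE scaling, library totals, DESeq2 1.42.0, the newer quasi-likelihood form, no filter, a replicate block and leaving out each library. The fits were tested on simulated counts, where recovery of changes was required only at a spread far below that of these data. The members and lists were chosen with earlier results of these data known. The text names every member, and full statistics follow a rule of non-overlap, unadjusted p under 0.05 or highest mean CPM. From the signalling list it names genes whose groups do not overlap (Tab1, Xiap and Adam10). Map3k5, Nfkbia, Cflar and the genes without an adjusted p in DESeq2 were named after their values were seen, and any further statistic was added after its value was seen. Values of some single marker genes are not reported here.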

Additional observations from a re-analysis of the deposited data

How the results depend on the processing

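EdgeR called 0 rows and 0 members under RLE scaling, library totals, the newer form, no filter and the replicate block, and 0 to 0 of both without each replicate. The median SE of the tested members was 1.75 on the log2 scale, so these counts of 0 say nothing about stability. DESeq2 called 388 rows and 2 members, Lta and Tnfsf4. Residuals of same-numbered libraries correlated at -0.0107, 0.0151 and -0.0039, so the numbers were not taken to pair the samples. With the replicate block the count of members at an unadjusted p under 0.05 was 1 in place of 3. Over all tested rows that count was 267 in place of 709. The log2 fold change turned sign with the block for Ltb (0.17), Tnfrsf10b (0.49), Tnfrsf14 (0.32), Tnfrsf18 (1.25) and Tnfrsf1a (-0.42). No sign turned under the other scalings, DESeq2, the newer form or no filter. Leaving out 1 library turned the sign of 10 of 24 members in at least 1 fit. Tnfrsf10b had no fit without 8 h replicate 2 and Tnfrsf23 none without 8 h replicate 2 or control replicate 3, so their ranges cover 5 and 4 fits. Their ranges were -2.87 to 1.35 for Fas, -1.17 to 0.88 for Ltb, -0.78 to 4.26 for Tnfrsf10b, -0.61 to 0.85 for Tnfrsf14, -3.16 to 2.40 for Tnfrsf18, -0.22 to 1.29 for Tnfrsf19, -1.72 to 1.18 for Tnfrsf1a, -0.76 to 0.30 for Tnfrsf23, -0.22 to 1.77 for Tnfsf10 and -2.15 to 0.83 for Tnfsf9. The cause of these turns was not tested beyond the library left out. The members' mean share of counts stayed at 0.390 to 0.476% at 8 h and 1.12 to 1.53% in the controls without each replicate, and was 0.417% at 8 h and 1.39% in the controls on TMM-scaled sizes.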
